A study of Mus musculus with 8 samples.

Results

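The genes described are 10 transcription factors of the lung epithelium, Nkx2-1, Foxa1, Foxa2, Gata6, Sox2, Sox9, Id2, Foxp1, Foxp2 and Etv5. Their probes were those that carry one of these symbols in the annotated matrix, with the older name Titf1 counted as Nkx2-1, and all 10 were found among the 21229 gene symbols there, with 19 of the 41174 probes. Each of 8 two-color arrays compared the lung RNA of 1 mouse, labelled with Cy5, with a reference pool used throughout and labelled with Cy3, and 4 of the mice were wild-type and 4 Scgb3a2-transgenic. The mice were male, of the strain C57BL/6, 8 to 10 weeks old by the sample labels, and received no treatment. The transgenic mice carried the mouse Scgb3a2 cDNA under the human surfactant protein C gene promoter, which is active in alveolar type II cells, and were of 1 transgenic line, so that the transgene and its place of insertion cannot be told apart. By the study's methods, equal parts of all the lung RNAs were mixed to make the pool, yet 21.9% of the probes tested lay above it on every array with a value, which a mix of these lungs alone would not give without a dye effect or a shift from normalization. No array had the dyes swapped, so a ratio to the pool, a dye effect and other RNA in the pool cannot be told apart, whereas a difference between genotypes has the same pool and dye on both sides. The question put to the arrays was whether these regulators, of which Nkx2-1 is a known activator of Scgb3a2, differed between lungs with and without the transgene.

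NKX2-1 is a homeodomain protein that marks the lung epithelium from its first appearance in the foregut, and in the adult it activates surfactant protein genes in type II cells and secretoglobin genes in Club cells. FOXA1 and FOXA2 are forkhead proteins that open chromatin and act with NKX2-1 at many of the same genes, and GATA6 is a zinc finger protein that takes part in the maturation of alveolar epithelium. In the growing lung SOX2 marks the future airways, while SOX9, ID2 and ETV5 mark the budding tips, where fibroblast growth factor (FGF) from the mesenchyme keeps progenitor cells. FOXP1 and FOXP2 are forkhead proteins of another branch that mostly repress, in airway and alveolar epithelium. In whole lung, several of these genes are also active outside the epithelium, Id2 and Foxp1 in leukocytes among others.

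The RefSeq promoter table of GRCm38.p6 held an entry for 7 of the 10 genes and none for Gata6, Sox9 and Foxp2. Shown are the 250 bases before the transcription start that the table gives, 5′ to 3′ on the gene's strand, for Nkx2-1 (chr12:56536909-56537158, minus strand), for Foxa1 (chr12:57546112-57546361, minus strand) and Etv5 (chr16:22439571-22439820, minus strand), whose ratios over the 8 arrays were the most like those of Nkx2-1 among the other 9 genes, and for the surfactant genes Sftpa1 (chr14:41131538-41131787, plus strand) and Sftpb (chr6:72304360-72304609, plus strand), which NKX2-1 and FOXA proteins are known to activate. Capitals mark the letters searched on both strands for the forkhead motif, TGTTTAC or TGTTTGC, and for the NKX2-1 motif, CTCAAG.
Nkx2-1: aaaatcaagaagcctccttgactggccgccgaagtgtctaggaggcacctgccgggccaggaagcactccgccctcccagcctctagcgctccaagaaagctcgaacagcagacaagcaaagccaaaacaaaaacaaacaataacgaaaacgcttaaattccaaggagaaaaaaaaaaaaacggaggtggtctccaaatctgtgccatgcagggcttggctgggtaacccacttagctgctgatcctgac
Foxa1: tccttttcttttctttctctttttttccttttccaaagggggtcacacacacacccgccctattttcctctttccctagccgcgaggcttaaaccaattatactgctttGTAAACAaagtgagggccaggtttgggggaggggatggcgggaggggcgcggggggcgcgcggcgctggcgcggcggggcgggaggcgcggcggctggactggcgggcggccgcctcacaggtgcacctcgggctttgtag
Etv5: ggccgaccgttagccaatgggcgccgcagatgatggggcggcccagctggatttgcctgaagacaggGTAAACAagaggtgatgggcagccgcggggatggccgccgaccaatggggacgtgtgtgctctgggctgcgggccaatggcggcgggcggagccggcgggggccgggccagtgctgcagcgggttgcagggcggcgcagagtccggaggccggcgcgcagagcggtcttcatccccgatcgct
Sftpa1: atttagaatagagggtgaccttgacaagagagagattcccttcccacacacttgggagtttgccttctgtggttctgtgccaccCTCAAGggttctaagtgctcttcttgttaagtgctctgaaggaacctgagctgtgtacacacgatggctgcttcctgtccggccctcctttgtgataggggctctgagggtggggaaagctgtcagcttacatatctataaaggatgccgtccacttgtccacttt
Sftpb: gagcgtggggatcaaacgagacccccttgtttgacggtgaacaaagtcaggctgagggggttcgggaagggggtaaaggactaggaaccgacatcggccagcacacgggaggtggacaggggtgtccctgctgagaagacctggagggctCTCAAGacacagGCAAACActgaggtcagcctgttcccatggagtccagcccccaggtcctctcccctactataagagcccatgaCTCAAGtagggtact
The forkhead letters stood in the promoters of Foxa1, Etv5 and Foxp1, 3 of the 7 genes with an entry, against 7.29% of 32851 promoters, and the NKX2-1 letters in 0 of the 7, against 13.3%. The entries of Foxa1 and Foxp1, which hold 2 of these 3 forkhead matches, do not lie at the outermost start annotated for the gene. In Foxa1 the forkhead match overlaps a match of the SOX letters ACAAAG. One of the SOX motifs ACAAAG or ACAATG stood in 3 of the 7 promoters, against 25.2% of all, and neither the GATA motif AGATAA (9.99% of all) nor the ETS motif CCGGAAG (6.91% of all) stood in any of them. Sftpa1 held 1 match of CTCAAG, and Sftpb held 2 with 1 forkhead match between them. These matches describe the letters only, and factor binding was not measured.

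The arrays were alike in depth. In Cy5 the median spot had a signal of 204 to 277.5 where the median local background was 55.5 to 59, none reached saturation, and an outlier flag was set on 1.72% to 6.46% of spots. All 19 member probes were well above background on 8 of 8 arrays. Of the 32645 probes tested, 0 had an adjusted p under 0.05 by limma, which is 0% of the probes, and 682 (2.09%) had an unadjusted p under 0.05. Sftpc, Scgb1a1, Foxj1 and Ager, markers of type II, Club, ciliated and type I cells, were well above background on 8 of 8 arrays. On at least 4 arrays 33970 of the 41174 probes were, so this call alone does not tell lung from another tissue. Scgb3a2, the transgene's product, was higher on average in the lungs labelled transgenic, but wild-type replicate 3 lay above transgenic replicate 2, so it does not settle the label of each lung. Its log2 ratio to the pool was 0.0061, -0.39, 0.58 and -0.56 in wild-type replicates 1 to 4 and 1.26, 0.47, 0.70 and 0.74 in transgenic replicates 1 to 4, a 1.84-fold higher mean with an unadjusted p of 0.00329 by limma, an adjusted p of 1, and an exact permutation p of 0.0571 (two-sided), where 4 mice against 4 allow no less than 0.0286. Whether this probe reads the transcript of the transgene, of the mouse's own gene or both was not tested.

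No difference between the genotypes passed a test in any of the 10 transcription factors. With each gene given by 1 probe, its brightest that could be tested, 0 of 10 had an unadjusted p under 0.05 by limma, against 2.09% of all probes tested (1.12% higher in transgenic lungs and 0.971% lower), and 0 of 10 had groups that did not overlap, against 1.98% (1.07% higher and 0.904% lower). The mean was higher in transgenic lungs for 4 genes and lower for 6, and the median difference in log2 ratio was -0.019, against 0.0010 over all probes tested. The median size of the difference, without its sign, was 0.087 for the 10 genes and 0.078 for all probes tested. The standard errors ranged from 0.11 to 0.31. For 8 of the 10 genes the 95% interval of the difference lay within 1.5-fold in either direction, and it reached past this for Foxp1 and Etv5. A p that misses the threshold does not show equal levels, and these intervals give the differences that 4 mice per genotype leave possible.

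**Figure D1:**
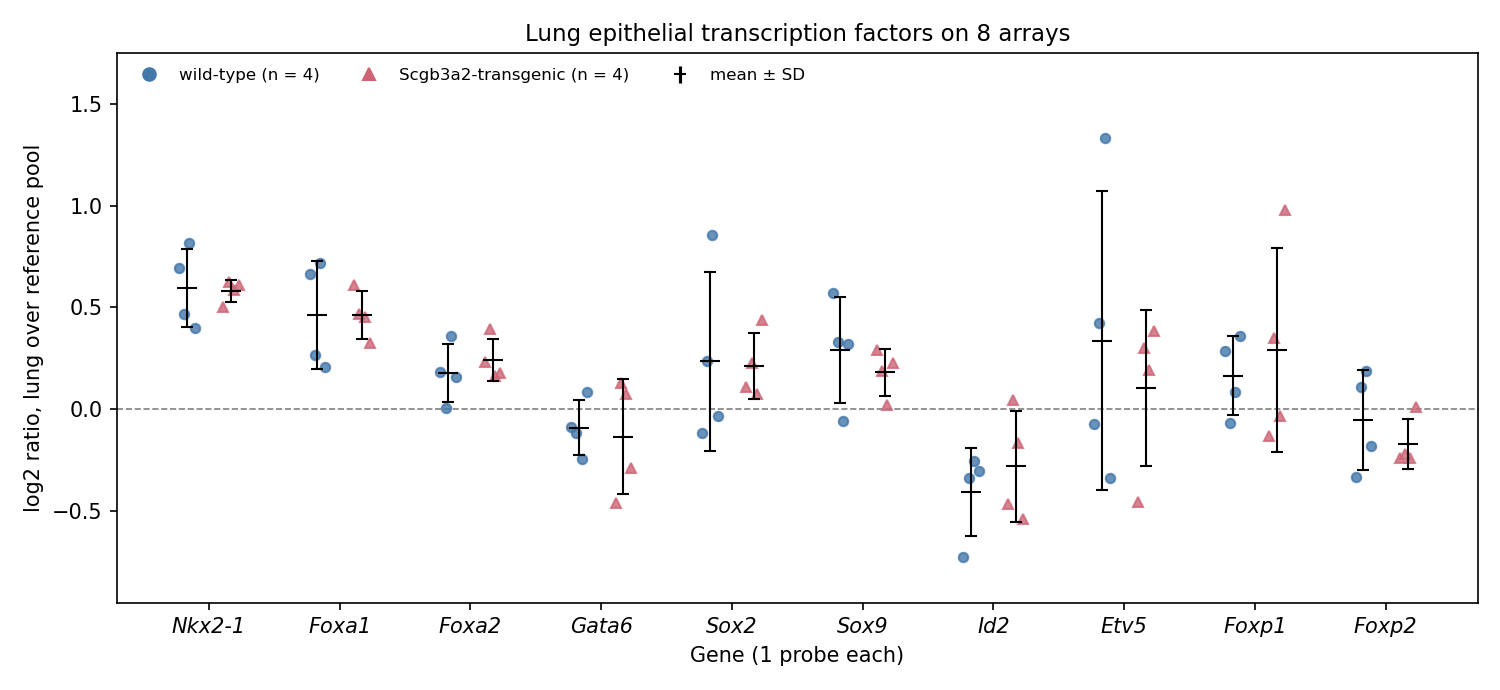
Log2 ratio of lung RNA over the reference pool for each of the 10 genes (1 probe each), with circles for the 4 wild-type and triangles for the 4 transgenic lungs and bars for the mean ± SD of each genotype. The genotypes overlap for every gene, Nkx2-1 and Foxa1 lie above the pool on all 8 arrays, and Etv5 has the widest spread, from -0.46 to 1.33.

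Nkx2-1 (probe A_52_P216427, NM_009385) had log2 ratios of 0.69, 0.47, 0.81 and 0.40 in wild-type replicates 1 to 4 and of 0.50, 0.62, 0.59 and 0.61 in transgenic replicates 1 to 4. All 8 lungs lay above the pool, and the 4 transgenic lungs lay within the range of the wild-type lungs. Wild-type lungs averaged 0.59 ± 0.19 (SD, n = 4) and transgenic lungs 0.58 ± 0.055 (SD, n = 4). This difference, -0.014 (standard error 0.11), had a 95% interval of -0.26 to 0.23, that is 0.835-fold to 1.18-fold (unadjusted limma p = 0.905, exact permutation p = 0.914).

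Foxa1 (A_51_P417643) had log2 ratios of 0.66, 0.27, 0.72 and 0.21 in wild-type and of 0.61, 0.47, 0.45 and 0.32 in transgenic replicates. It too lay above the pool on all 8 arrays, and its genotype means were nearly the same, 0.46 ± 0.26 (SD, n = 4) and 0.46 ± 0.12 (SD, n = 4). The difference was 0.00024 (standard error 0.14, 95% interval -0.30 to 0.30, unadjusted limma p = 0.999, exact permutation p = 1). Foxa2 (A_51_P222773), which acts with Foxa1 in airway and alveolar differentiation, had log2 ratios of 0.18, 0.0066, 0.36 and 0.16 in wild-type and of 0.23, 0.39, 0.16 and 0.18 in transgenic replicates. All 8 values were above the pool here as well, though the lowest, of wild-type replicate 2, only just. The difference was 0.065 (standard error 0.11, 95% interval -0.17 to 0.30, unadjusted limma p = 0.559, exact permutation p = 0.429). As given above, 21.9% of all probes tested were above the pool in this way. Nkx2-1 and Foxa1 stayed above the pool on 8 of 8 arrays when arrays were centred on their medians in place of loess and in the deposited matrix, while Foxa2 was above it on 6 of 8 under median centring.

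Gata6, which regulates surfactant genes and alveolar maturation, was measured by 3 probes. The brightest (A_51_P411917) had log2 ratios of -0.089, -0.12, -0.24 and 0.084 in wild-type and of -0.46, 0.13, 0.074 and -0.29 in transgenic replicates. Transgenic replicates held both the highest and the lowest of the 8 values. The difference was -0.045 (standard error 0.14, 95% interval -0.36 to 0.27, unadjusted limma p = 0.76, exact permutation p = 0.8). The other 2 probes gave differences of -0.019 and -0.015, close to the brightest, but over the arrays the 3 probes did not follow each other. Pearson's r between the brightest probe and the others was -0.26 over 7 arrays and 0.025 over 8 arrays, and between those 2 it was -0.82 over 7 arrays, so the array-to-array pattern of Gata6 cannot be read from any of them.

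Sox2 (A_52_P307739), a marker of the conducting airway, had log2 ratios of -0.12, 0.23, 0.86 and -0.032 in wild-type and of 0.11, 0.23, 0.073 and 0.44 in transgenic replicates. Wild-type replicate 3 stood well above the other lungs, and the transgenic values lay between the wild-type ones. The difference was -0.024 (standard error 0.19, 95% interval -0.44 to 0.40, unadjusted limma p = 0.904, exact permutation p = 0.943), and without wild-type replicate 3 it was 0.18.

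Of the genes of the distal tip, Sox9 (A_51_P451606) had log2 ratios of 0.57, 0.33, -0.057 and 0.32 in wild-type and of 0.29, 0.19, 0.021 and 0.23 in transgenic replicates. The highest and the lowest lung were both wild-type. The difference was -0.11 (standard error 0.13, 95% interval -0.40 to 0.19, unadjusted limma p = 0.434, exact permutation p = 0.429). A dimmer Sox9 probe (A_52_P577484), which followed the first over the 8 arrays (r = 0.78), gave the smallest p of the 18 tested member probes, with a difference of -0.21 (standard error 0.12, 95% interval -0.47 to 0.048, unadjusted limma p = 0.101, exact permutation p = 0.114). The dimmest Sox9 probe (A_52_P214630) gave -0.020.

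Id2, an inhibitor of basic helix-loop-helix factors, was the gene of the 10 that lay lowest against the pool. Its brightest probe (A_51_P219074) had log2 ratios of -0.73, -0.34, -0.25 and -0.31 in wild-type and of -0.46, 0.047, -0.16 and -0.54 in transgenic replicates. Only transgenic replicate 2 reached the pool. A second probe of the same transcript (A_52_P240542) followed it closely (r = 0.92 over 8 arrays) and was below the pool on all 8 arrays. The 2 probes were higher in transgenic lungs by 0.12 (standard error 0.15, 95% interval -0.21 to 0.46, unadjusted limma p = 0.431, exact permutation p = 0.514) and by 0.21 (standard error 0.13, 95% interval -0.080 to 0.49, unadjusted limma p = 0.14, exact permutation p = 0.2). The third Id2 probe (A_52_P94071), designed to the cDNA AK013239, lay above the pool on the 5 arrays with an unflagged spot, against the other 2, and its difference was 0.15.

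Etv5, an ETS factor and an FGF target, varied most from lung to lung. Its brightest probe (A_51_P323579) had log2 ratios of -0.071, 0.42, 1.33 and -0.34 in wild-type and of -0.46, 0.30, 0.19 and 0.38 in transgenic replicates. The wild-type lungs alone spanned from -0.34 to 1.33, and the transgenic lungs lay mostly inside that span. The difference was -0.23 (standard error 0.31, 95% interval -0.92 to 0.46, unadjusted limma p = 0.476, exact permutation p = 0.657), and without wild-type replicate 3 it was 0.10. The second probe (A_52_P631015), with r = 0.83 to the first over 8 arrays, also had its highest value in wild-type replicate 3 (0.32) and gave a difference of -0.12.

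Foxp1 was the least well measured. Its brightest probe (A_52_P225700) carried an outlier flag on 4 of the 8 arrays, leaving 1 wild-type lung at 0.39 and transgenic replicates 1 to 3 at 0.096, 0.030 and 0.18, too few to test. With the flagged spots kept, a choice made after the data had been seen, this probe gave a difference of 0.029 (standard error 0.13, 95% interval -0.27 to 0.32). The probe tested in its place (A_52_P604022), designed to the cDNA AK031837, was dim, with Cy5 signals of 95 to 184 over local backgrounds of 55 to 61. Its level was at the 34.8th percentile of all probes, that of the brightest Foxp1 probe at the 95.2nd. It had log2 ratios of 0.28, -0.067, 0.085 and 0.36 in wild-type and of -0.13, 0.35, -0.034 and 0.98 in transgenic replicates. Transgenic replicate 4 stood above the rest. The difference was 0.13 (standard error 0.21, 95% interval -0.34 to 0.60, unadjusted limma p = 0.57, exact permutation p = 0.743), and without transgenic replicate 4 it was -0.10. Foxp2 (A_51_P233753) had log2 ratios of -0.34, 0.11, 0.19 and -0.18 in wild-type and of -0.24, -0.22, -0.24 and 0.011 in transgenic replicates. The wild-type lungs spread to both sides of the transgenic ones, of which replicate 4 stood apart. The difference was -0.12 (standard error 0.13, 95% interval -0.41 to 0.17, unadjusted limma p = 0.392, exact permutation p = 0.371), and the second probe (A_52_P56818, r = 0.42 to the first over 8 arrays) gave -0.19 (unadjusted limma p = 0.143, exact permutation p = 0.171). In all 5 genes with more than 1 tested probe, the probes had differences of the same sign.

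**Figure D2:**
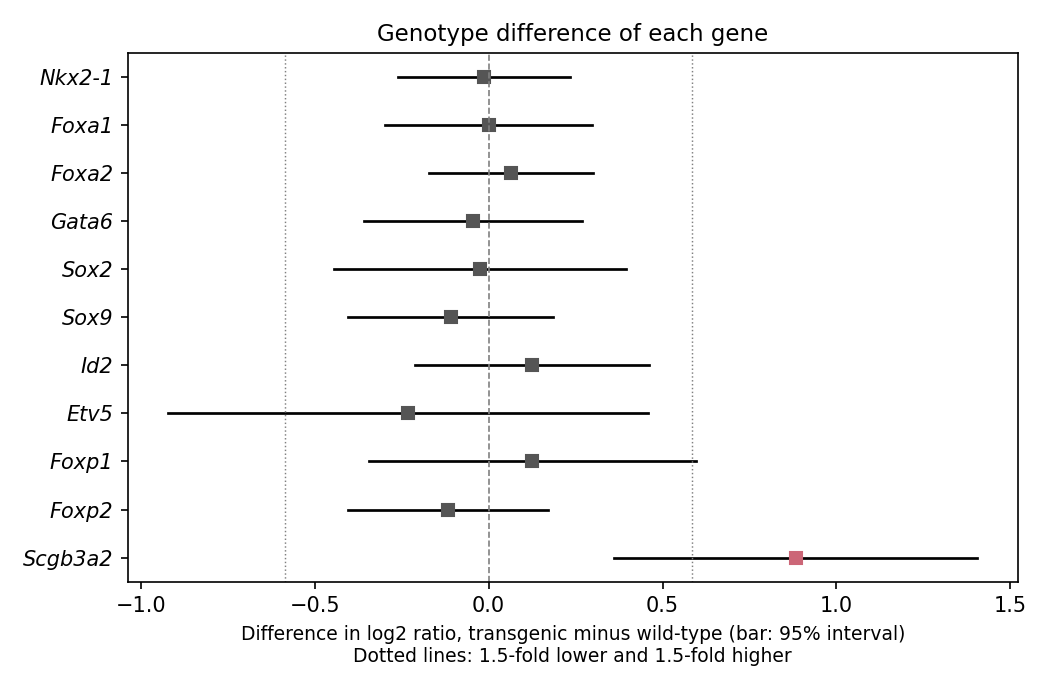
Difference in log2 ratio between transgenic and wild-type lungs (squares) with its 95% interval from limma (lines) for the 10 genes and for Scgb3a2, with dotted lines at 1.5-fold. The intervals of all 10 genes include 0, that of Etv5 is the widest (-0.92 to 0.46), and that of Scgb3a2 runs from 0.36 to 1.41.

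The genes varied to different degrees among lungs of a genotype. The within-genotype SD of Etv5, 0.59, was at the 99.3rd percentile of all probes tested, that of Foxp1, 0.38, at the 95.7th and that of Sox2, 0.33, at the 91.9th, where the median probe had 0.18. The values of Foxp1, read from a dim probe, and of Sox2 rested on 1 lung each. Without transgenic replicate 4 the SD of Foxp1 was 0.22, at the 68.0th percentile, without wild-type replicate 3 that of Sox2 was 0.17, at the 49.8th, and that of Etv5 was then 0.38, at the 96.3rd. Nkx2-1 and Foxa2 were among the steadier, with SDs of 0.14 and 0.13 at the 30.4th and 22.1st percentiles. Wild-type replicate 3 held the highest value of the 8 lungs for 5 of the 10 genes, namely Nkx2-1, Foxa1, Sox2, Foxp2 and Etv5. Transgenic replicate 2 held it for 3 genes, Foxa2, Gata6 and Id2. The share of all probes that were highest in either lung was not computed. The SD of the log2 ratios over all probes was 0.46 in wild-type replicate 3, where the 8 arrays ran from 0.33 to 0.49. The SD was not uniformly smaller or larger in either genotype, and 7 of the 10 had a smaller SD in transgenic than in wild-type lungs, against 48.3% of 29494 probes with a value on all arrays.

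The 2 arrays of a slide held 1 lung of each genotype, and the 4 slides were scanned on 2 days, which are the batches that the file headers show. Scgb3a2 was higher in the transgenic lung on 4 of 4 slides, by 0.16 to 1.26. No member gene went the same way on all 4 slides. The share of all probes that did was not computed, so neither count can be set against it. Nkx2-1 was lower in the transgenic lung by 0.20 and 0.19 on the 2 slides of day 1 and higher by 0.15 and 0.19 on the 2 slides of day 2. Within a day, with 2 lungs of each genotype, the Nkx2-1 difference was -0.20 on day 1 and 0.17 on day 2, that of Foxa1 -0.22 and 0.22, that of Foxa2 -0.066 and 0.20, that of Gata6 -0.21 and 0.12, and that of Etv5 -0.67 and 0.20. Sox2 gave -0.096 and 0.049, Sox9 0.0023 and -0.22, Id2 -0.013 and 0.26, Foxp1 0.24 and 0.012, and Foxp2 -0.040 and -0.19. The 2 days gave opposite signs for 8 of these genes and the same sign for 2 genes, Foxp1 and Foxp2. Some of these values were close to 0, as for Sox9 and Id2 on day 1. The share of all probes with opposite signs was not computed, so the count is not read as a trait of these genes. Whether the genotype difference differs between days was not tested. With the slide as a block, 0 of the 10 genes had an unadjusted limma p under 0.05, against 3.72% of 32637 probes. With the scan day as a block 0 had, and the share over all probes in that fit is not given here.

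**Figure D3:**
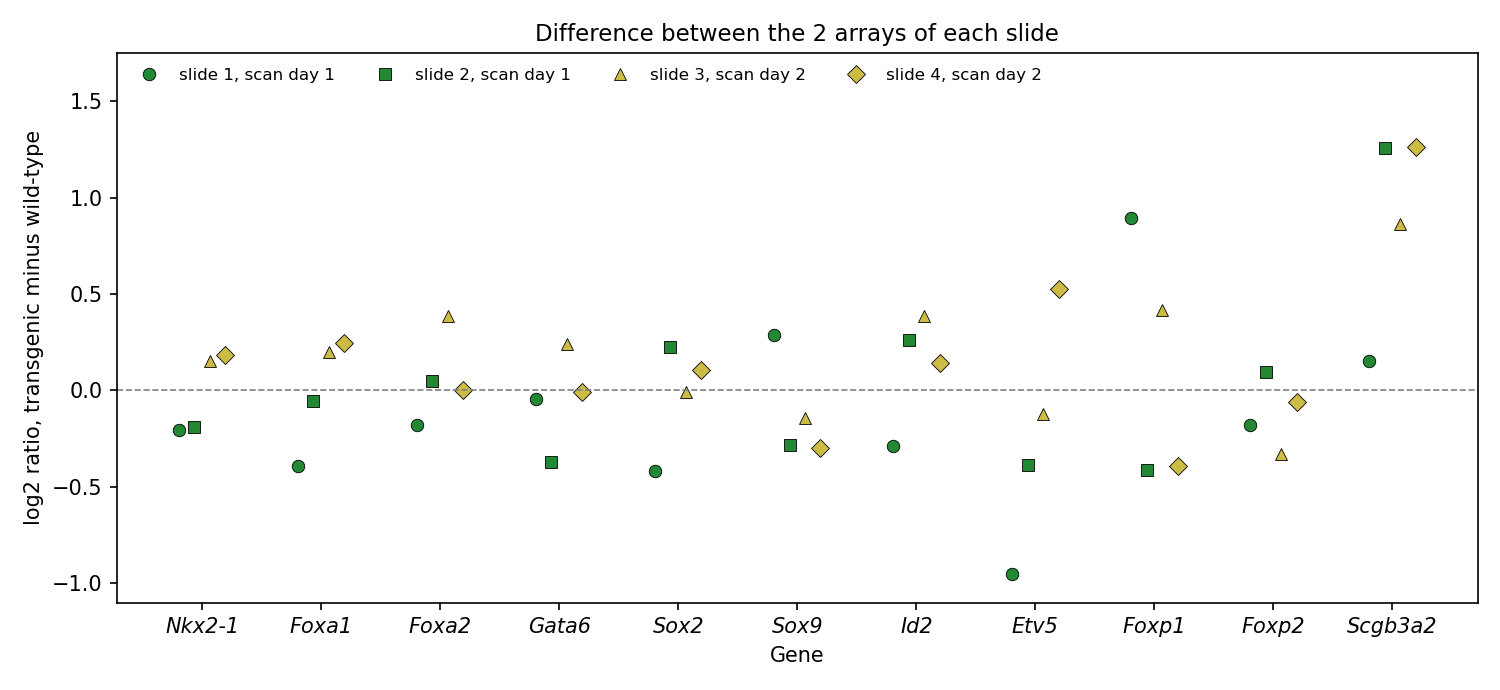
Log2 ratio of the transgenic minus the wild-type array on each of the 4 slides, with marker shape for the slide and color for the scan day, for the 10 genes and Scgb3a2. The Scgb3a2 points all lie above 0 (0.16 to 1.26), while each of the 10 genes has points on both sides of 0 and Etv5 spans -0.95 to 0.53.

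More probes differed between scan days than between genotypes at an unadjusted p under 0.05. In a model with both, 3423 of 32330 probes (10.6%) had an unadjusted p under 0.05 between days by limma and 4 (0.0124%) an adjusted one. Of the 10 genes 2, Gata6 and Id2, had an unadjusted p under 0.05, and none an adjusted one. Gata6 was higher on day 2 by 0.31 (standard error 0.11, limma adjusted p = 0.393) and Id2 by 0.31 (limma adjusted p = 0.443). The other Gata6 probes gave -0.18 and 0.13, and the second Id2 probe gave 0.23. This count was 3 in the sample channel alone, 0 in the deposited matrix and 0 without transgenic replicate 2 or without transgenic replicate 3. Day and the mice scanned on it cannot be told apart, since each mouse was scanned once.

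Over the 8 arrays Foxa1 was, of the other 9 genes, the most like Nkx2-1, with Pearson's r of 0.77, followed by Etv5 (0.72), Foxa2 (0.61) and Sox2 (0.60). Foxp2 (0.24), Foxp1 (0.11), Id2 (-0.038), Gata6 (-0.16) and Sox9 (-0.36) had lower values, of which that for Gata6 holds for its brightest probe only, since its probes did not follow each other. With each lung left out in turn, these ran from -0.38 to 0.50 for Foxp2 and from -0.0086 to 0.32 for Foxp1. They ran from -0.20 to 0.24 for Id2, from -0.47 to 0.085 for Gata6 and from -0.86 to 0.12 for Sox9. Scgb3a2 gave 0.37, which ran from 0.038, without wild-type replicate 4, to 0.68, without transgenic replicate 1, and was -0.14 in the sample channel alone. These are descriptions over 8 lungs that share the pool, and wild-type replicate 3 was the highest lung for Nkx2-1, Foxa1, Sox2 and Etv5 and the second highest for Foxa2. Foxa1 ranked 314th among 25889 probes in this measure. The 5 genes most like Nkx2-1 were Frk, a tyrosine kinase (0.99), Olfr947-ps1, an olfactory receptor pseudogene (0.98), Gstt1, a glutathione transferase (0.97), Bambi, a decoy receptor of the transforming growth factor beta family (0.97), and 2010107G12Rik (0.96). Several of these correlations moved with the processing or with 1 lung left out, and the causes were not tested. The value for Frk was -0.30 with normexp fitted on all spots and that for 2010107G12Rik -0.20 with arrays centred on their medians, that for Foxa1 was 0.067 in the sample channel alone, where Foxp2 had 0.78, Id2 0.72 and Gata6 0.57, that for Sox9 ran from -0.86 without wild-type replicate 1 to 0.46 with arrays centred on their medians, and without wild-type replicate 3 that for Etv5 was 0.37 and that for Sox2 0.049.

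Among 40 other regulators of the lung epithelium, 34 could be tested, and the transgenic mean was the higher for 15 and the lower for 19, and the median of their differences was -0.012. This median was -0.11 with arrays centred on their medians, -0.13 in the sample channel alone and -0.046 without wild-type replicate 2. It was -0.0014 with normexp fitted on all spots and 0.0018 without wild-type replicate 1. An unadjusted p under 0.05 was reached by 2 genes, both lower, against 0.971% of all probes lower at this threshold, and none had an adjusted one. Cebpa, which encodes a leucine zipper factor of type II cell maturation, had log2 ratios of 0.53, 0.43, 0.58 and 0.41 in wild-type and of -0.014, 0.22, 0.25 and -0.078 in transgenic replicates. All 4 transgenic lungs were below all 4 wild-type lungs. The difference was -0.39 (standard error 0.11, 95% interval -0.63 to -0.15, unadjusted limma p = 0.00394, adjusted p = 1, exact permutation p = 0.0286, the smallest that 4 against 4 allow). Klf5, a zinc finger factor of perinatal alveolar maturation, had log2 ratios of 0.15, 0.27, 0.36 and 0.15 in wild-type and of -0.21, -0.11 and -0.029 in transgenic replicates 1, 2 and 4, with no value on the third. These groups did not overlap either, and the difference was -0.35 (standard error 0.11, unadjusted limma p = 0.00921, adjusted p = 1, exact permutation p = 0.0286 over the 7 lungs with a value). Over the alternatives tried Cebpa stayed between -0.47 and -0.30 and Klf5 between -0.56 and -0.25, with an adjusted p of 0.991 at the least. The unadjusted p by limma was above 0.05 in 1 of the 24 alternatives for each, at 0.0856 for Cebpa in the sample channel alone and at 0.0548 for Klf5 in the scanner software's processed ratios. Foxa3, the third FOXA gene, and Nkx2-9 were well above background on none of the arrays. Foxp4, the relative of Foxp1 and Foxp2, gave -0.065, and Id1, Id3 and Id4, the relatives of Id2, gave -0.014, 0.034 and 0.28 (for Id4, unadjusted limma p = 0.0676, exact permutation p = 0.143). Etv1 gave -0.16, and Sox11, at 0.40 (unadjusted limma p = 0.0736, exact permutation p = 0.229), had the largest difference upward in the list. With 1 lung left out at a time the difference of Sox11 ran from 0.24, without wild-type replicate 2, to 0.60, without wild-type replicate 4, and the latter was the 1 alternative of 24 in which its unadjusted p by limma was under 0.05.

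Among the genes downstream of these factors the surfactant genes had lower means in transgenic lungs. Of 20 genes that NKX2-1, FOXA1, FOXA2 or GATA6 are known to act on, or that mark the cells they specify, 17 could be tested. The transgenic mean was above the wild-type mean for 3 and below it for 14, and the median difference was -0.19, where 50.4% of all probes were higher. At an unadjusted p under 0.05 stood Scgb3a2, higher by 0.88, against 1.12% of all probes higher, and the surfactant genes Sftpa1 and Sftpd, lower, against 0.971% lower, and none had an adjusted p under 0.05. The median of the list was -0.100 without wild-type replicate 3, -0.35 without wild-type replicate 4 and -0.087 with array weights. Sftpa1 had log2 ratios of 0.80, 0.62, 1.66 and -0.049 in wild-type and of -0.24, 0.12, 0.30 and -0.13 in transgenic replicates, a difference of -0.75 (standard error 0.29, unadjusted limma p = 0.0238, exact permutation p = 0.0857). Sftpd had 0.63, 0.41, 0.74 and 0.054 in wild-type and -0.032, 0.14, 0.16 and -0.33 in transgenic replicates, a difference of -0.47 (standard error 0.16, unadjusted limma p = 0.0133, exact permutation p = 0.0857). In both genes wild-type replicate 4 lay among the transgenic lungs. Without wild-type replicate 3, the highest lung, the difference of Sftpa1 was -0.44 with an unadjusted p of 0.0541 by limma, and that p was also above 0.05 in the deposited matrix (0.0524). Of the 24 alternatives, an unadjusted p under 0.05 was kept in 16 for Sftpa1 and in 23 for Sftpd. Sftpb, whose promoter is shown above, gave -0.57 (standard error 0.27, unadjusted limma p = 0.0617, exact permutation p = 0.2), Sftpc -0.60 (unadjusted limma p = 0.17, exact permutation p = 0.314), and Abca3, the lipid transporter of lamellar bodies and another NKX2-1 and FOXA2 target, -0.014 (standard error 0.10, unadjusted limma p = 0.894, exact permutation p = 0.857). With the slide as a block Sftpc gave -0.25, with the transgenic lung higher on 2 of the 3 slides with both values, and with array weights -0.155. The Club cell gene Scgb1a1 gave -0.10 (standard error 0.30, unadjusted limma p = 0.739, exact permutation p = 0.857), Foxj1 0.025 and Ager -0.27.

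**Figure D4:**
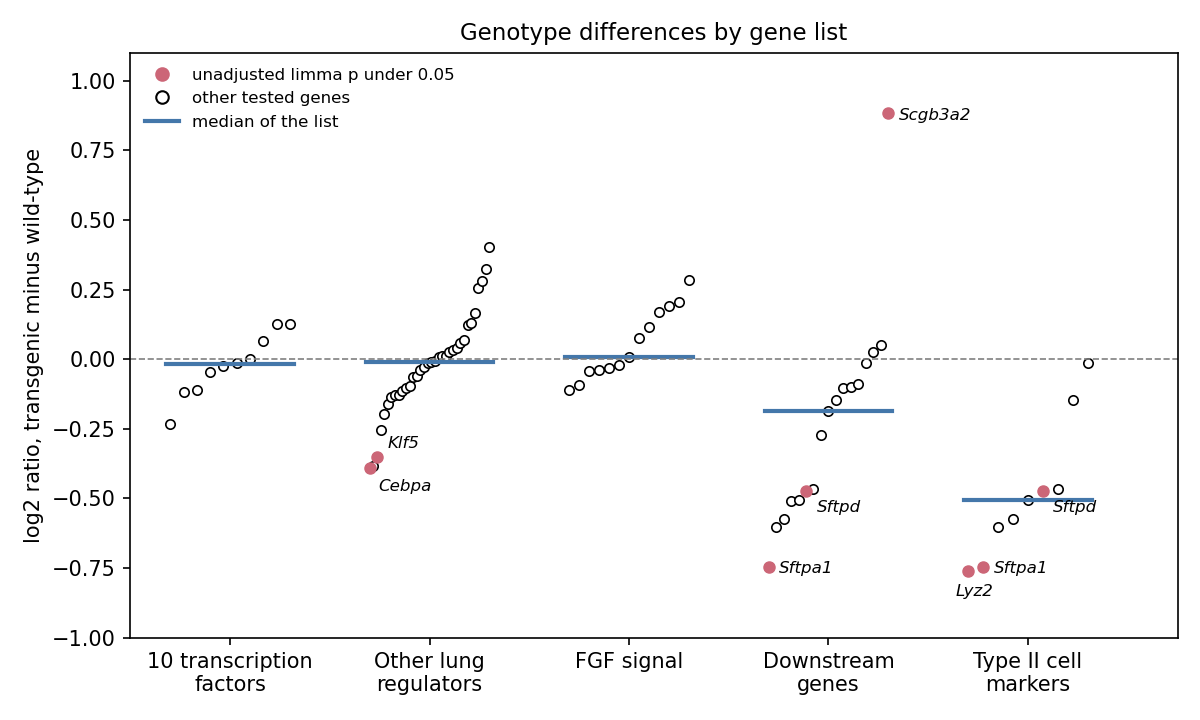
Difference in log2 ratio (transgenic minus wild-type) of each tested gene in 5 lists, sorted within a list, with filled points for an unadjusted limma p under 0.05 and a line for the median of the list. The 10 factors, the other regulators and the FGF list have medians of -0.019, -0.012 and 0.0070, the downstream genes and the type II cell markers, which share 8 genes, -0.19 and -0.50.

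For the FGF pathway, which keeps Etv5 and Sox9 active in the tip, a list of 15 genes was taken, of which 13 could be tested. The list also held Shh (0.11) and Bmp4 (-0.039), which are not FGF genes. A higher mean in transgenic lungs was found for 7 and a lower one for 6, the median was 0.0070, and none had an unadjusted p under 0.05, against 2.09% of all probes. Without wild-type replicate 3 the median of the list was 0.17 and without transgenic replicate 1 it was 0.11, and it was below 0 without wild-type replicate 1, wild-type replicate 4 or transgenic replicate 2. The ligands Fgf10, Fgf9 and Fgf7 gave 0.077, 0.17 and -0.019, and the receptor Fgfr2 gave -0.094. The feedback inhibitor Spry4 was highest in the list at 0.29 (standard error 0.15, unadjusted limma p = 0.0864, exact permutation p = 0.2) and Spred1 lowest at -0.11. Spred2, another inhibitor of this pathway, gave 0.21 (standard error 0.099, unadjusted limma p = 0.0625, exact permutation p = 0.0286), and its groups did not overlap, at -0.41 to -0.25 in wild-type and -0.19 to 0.069 in transgenic lungs. Of the 24 alternatives, an unadjusted p under 0.05 was reached in 5 for Spred2, the fit with the scan day as a block among them, and in 4 for Spry4. With 1 lung left out Spry4 ran from 0.19, without wild-type replicate 2, to 0.42, without wild-type replicate 1. Without wild-type replicate 2 Spry4 lay below Spred2, which was then at 0.22.

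In whole lung, fewer cells of a type and less RNA per cell cannot be told apart, and the markers of several cell types are therefore given beside these values. Of the 10 type II cell markers 9 could be tested, of which 8, all but Lyz2, are also in the downstream list, so the lists are not separate evidence. All 9 had a lower mean in transgenic lungs, and 3 (Sftpa1, Sftpd and Lyz2) had an unadjusted p under 0.05 by limma, against 0.971% of all probes lower at this threshold. The median of their differences, -0.50, was -0.28 without wild-type replicate 3, -0.87 without wild-type replicate 4 and -0.18 with array weights. With the slide as a block Slc34a2, a phosphate transporter of type II cells, also had an unadjusted p under 0.05, at -1.07 (limma adjusted p = 0.941) against -0.50 without the block. The blocked value rests on the 2 slides with a value for both lungs, 4 lungs in all. The p of Lyz2, a lysozyme gene of type II cells and macrophages, was 0.0298 (exact permutation p = 0.143), and the limma p was 0.0873 without wild-type replicate 3 and under 0.05 in 16 of the 24 alternatives. The mean log2 ratio of the list ran from 0.065 to 1.28 over the wild-type lungs and from -0.15 to 0.41 over the transgenic lungs. Wild-type replicate 3 was the highest lung of the type II list. The Club cell markers ran from 0.80 to 1.71 and from 0.61 to 1.43 in wild-type and transgenic lungs, the ciliated cell markers from 0.24 to 0.66 and from 0.22 to 1.05, the type I cell markers from 0.15 to 0.45 and from -0.48 to 0.50, and the basal cell markers from 0.043 to 0.46 and from -0.12 to 0.22. Outside the epithelium, the adipocyte markers ran from 0.40 to 0.82 and from -0.18 to 0.37, and the endothelial markers, of which 2 of 5 could be tested, from -0.26 to 0.81 and from 0.57 to 1.03. The fibroblast markers ran from 0.10 to 0.45 and from 0.30 to 0.75, the macrophage markers from -0.91 to -0.40 and from -0.93 to -0.18, the lymphocyte markers from -0.10 to 0.25 and from -0.021 to 0.68, the cardiac muscle markers from 0.031 to 0.70 and from -0.34 to 0.28, and the skeletal muscle markers from -0.15 to 0.13 and from -0.23 to 0.067. The ranges of the 2 genotypes overlapped for every list except that of the adipocyte markers. A mean leaves out a gene on an array where its spot was flagged. Over genes with a value on all 8 arrays, the type II list (5 genes) ran from 0.036 to 1.06 and from -0.24 to 0.24 in wild-type and transgenic lungs, and the Club cell list (2 genes) from 0.80 to 1.66 and from 0.11 to 1.86. In the same way the type I list (3 genes) ran from 0.44 to 0.67 and from -0.28 to 0.85. The skeletal muscle list (4 genes) ran from 0.12 to 0.42 and from -0.15 to 0.28. The cardiac list, then 1 gene, ran from 0.29 to 0.79 and from -0.37 to 0.82. In these other lists an unadjusted p under 0.05 by limma was reached by 5 of the 48 genes tested (10.4%), against 2.09% of all probes, and 3 of the 5 lists they come from had differences of both signs. A higher mean in transgenic lungs was found for 2 of the 2 endothelial markers tested, 3 of the 5 lymphocyte markers, 1 of the 3 cardiac and 2 of the 5 skeletal muscle markers and 0 of the 5 adipocyte markers, with median differences of 0.49, 0.054, -0.34, -0.085 and -0.29. The endothelial receptor gene Kdr was higher by 0.63 and the B cell gene Ms4a1 by 0.63 in transgenic lungs. The cardiac myosin gene Myh6 was at -0.62, the muscle creatine kinase gene Ckm at -0.44 and the adipocyte hormone gene Adipoq at -0.89, all lower in transgenic lungs, and of the 5 the groups of Ckm alone did not overlap. With the slide as a block, Cd79a, another B cell gene (0.42), and Myh4, a skeletal myosin gene (-0.28), also had an unadjusted p under 0.05. The part of these cell types in the values of the transcription factors and their targets was not tested.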

How the data were processed

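Total lung RNA of 8 mice was hybridized to Agilent arrays of the whole mouse genome. The authors deposited, for each array, the intensity of every spot in both channels from Agilent Feature Extraction (10.10.1.1 in the file headers, 11.0.1.1 in the labels), and a matrix that gives, in log2, the processed sample signal over that of the pool, which was used as an alternative. Its values lay within 0.001 of the processed ratio for 39811 of 39811 probes with a single spot, so it is log2 and not centred, and 0 of its columns were left unmapped. The authors selected genes changed over 1.5-fold at p under 0.05, and an adjustment over genes is not given in the sources used here.

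The values reported were computed with limma 3.58.1 (R 4.3.3) from the median signals, since no mean signals were in the deposited intensities. The background was corrected with normexp (offset 50) fitted on spots without an outlier flag, controls and flagged spots were left out, ratios were normalized by loess within arrays, and spots of a probe were averaged. To be tested, a probe had to be well above background in Cy5 on 4 or more of the 8 arrays and to have 2 or more values per genotype, which 33970 and then 32645 of 41174 probes met. The genotypes were compared with limma's moderated test (two-sided), and p-values were adjusted by the Benjamini-Hochberg method over all probes tested. It was also run with the slide, the scan day or the replicate number as a block. Exact permutation tests were two-sided. The number of arrays limits the precision. By the methods, RNA was prepared from each mouse on its own, so that replicates are separate mice. Each gene stands by its brightest probe, except Foxp1, whose brightest had 1 wild-type value. Named are all member probes, Scgb3a2, genes under an unadjusted p of 0.05 in the lists of other regulators, downstream genes and FGF signal or, where fewer than 2 were, the highest and lowest, the 5 genes most like Nkx2-1, and defining markers. Other genes of the lists (Sox11, Foxp4, Id1, Id3, Id4, Etv1, Sftpb, Abca3, Fgf7, Fgf9, Fgf10, Fgfr2, Spred2, Shh, Bmp4, Foxa3, Nkx2-9 and the marker genes Lyz2, Slc34a2, Kdr, Ms4a1, Cd79a, Myh6, Myh4, Ckm and Adipoq) were named after their values were seen. The members and lists were chosen with earlier results of these data known. Promoters came from RefSeq (GRCm38.p6) and figures from Python 3.11.15 and matplotlib 3.10.9.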

Additional observations from a re-analysis of the deposited data

Results flagged for a closer look

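One lung stood apart for 1 member probe. In Foxp2 (A_51_P233753) transgenic replicate 4, at a log2 ratio of 0.011, was separated from the other 3 transgenic lungs, at -0.24, -0.22 and -0.24, by 0.911 of the range of the group, above Dixon's 95% limit for 4 samples. Of the groups examined, 38 in all, chance would be expected to mark about 1 in 20, and 1 was marked. The second Foxp2 probe also had its highest transgenic value, 0.37, in this lung.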

How the results depend on the processing

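Across 24 alternatives, of which 8 left out 1 lung each, 1131 values were recomputed. Of these 989 were counted as unchanged, 42 changed sign and 100 moved further. Unchanged meant the same sign and adjusted call for a genotype difference, and within 1.5-fold for a count. For a correlation it meant a shift under a fixed limit, and for a list median one under the SD among lungs of a genotype. No adjusted p was under 0.05 in any alternative, and some, the methods' t-test among them, left the differences as they were. The 989 is therefore no measure of robustness. In all of these alternatives 0 of the 10 transcription factors had an unadjusted or adjusted p under 0.05 between genotypes. All changes of sign were in differences with an unadjusted p above 0.05 as reported, of which Sftpc had -0.87 and an unadjusted p of 0.0274 by limma with the replicate block. With normexp fitted on all spots the difference was 0.080 for Nkx2-1, -0.022 for Id2, 0.060 for Scgb1a1 and -0.0021 for Foxj1. In the scanner software's processed ratios and in the deposited matrix it was -0.0015 for Foxa1 and 0.078 for Sox2, and in the matrix 0.18 for Scgb1a1. With arrays centred on their medians it was -0.088 for Foxa1, -0.019 for Foxa2 and -0.076 for Foxj1. In the sample channel alone it was -0.13 for Foxa1, -0.030 for Foxp1 and 0.029 for Sftpc. Array weights gave 0.054 for Nkx2-1, 0.065 for Gata6, 0.018 for Sox2, 0.049 for Scgb1a1 and -0.064 for Foxj1. Scgb1a1 was 0.15 with flagged spots kept and 0.016 with the scan day as a block. With each lung left out in turn the difference ran from -0.078 to 0.060 for Nkx2-1, from -0.085 to 0.085 for Foxa1, from -0.13 to 0.063 for Gata6, from -0.14 to 0.18 for Sox2, from -0.46 to 0.10 for Etv5, from -0.10 to 0.27 for Foxp1, from -0.28 to 0.18 for Scgb1a1, from -0.87 to -0.25 for Sftpc, from -0.20 to 0.14 for Foxj1 and from -0.43 to 0.083 for Ager. It kept its sign but moved by over 1.5 times for the other members, from 0.0077 to 0.12 for Foxa2, from -0.22 to -0.015 for Sox9, from 0.016 to 0.21 for Id2 and from -0.21 to -0.036 for Foxp2. The count of the 10 genes with an unadjusted p under 0.05 between scan days, 2 as reported, was 1 with a normexp offset of 0, with normexp fitted on all spots and with the mean of all tested probes of a gene, 0 in the processed ratios and in the deposited matrix, 3 in the sample channel alone, and 0 to 2 with a lung left out. The count of all probes at an unadjusted p under 0.05 between genotypes, 682 as reported, was 390 with normexp fitted on all spots, 300 in the sample channel alone, 1205 with array weights, 1213 with the slide as a block, and 502 to 1192 with a lung left out, the highest without wild-type replicate 4, with 1075 without transgenic replicate 1 and 1038 without transgenic replicate 4. The methods' t-test gave 866 such probes, 27 of them past 1.5-fold, and 0 after adjustment. The causes of these shifts were not tested.

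The replicate numbers did not pair the lungs, since same-numbered lungs deviated from their group means with correlations of 0.32, 0.25, -0.085 and -0.21. Lungs of the same slide had 0.32, 0.25, 0.30 and 0.075. With the replicate block the difference of Nkx2-1 was -0.014 (limma adjusted p = 1), 0 of the 10 genes had an unadjusted p under 0.05, and 885 probes in all had one. No scaling moved the median difference of all probes by more than 0.1 on the log2 scale.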
